A study of Mus musculus with 412 samples.

Results

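The neuropilins and plexins are cell-surface receptors through which axons read semaphorins, and 10 of their genes were examined here in single sensory neurons of the mouse colon: the neuropilins *Nrp1* and *Nrp2*, the class A plexins *Plxna1*, *Plxna2*, *Plxna3* and *Plxna4*, the class B plexins *Plxnb1* and *Plxnb2*, *Plxnc1* and *Plxnd1*. They were taken by their symbols from the 45513 genes of the expression table. The rule used symbols alone, but the family was chosen with earlier results of these data known. *Nrp1* and *Plxnc1* were the genes of this family that differed by more than 2-fold between spinal segments. The mean level of *Nrp1* was 45.3 in thoracolumbar neurons and 12.4 in lumbosacral neurons, a 3.66-fold difference with the same direction in 5 of 5 library plates, and *Plxnc1* was 2.88-fold higher in thoracolumbar neurons. On the mean of log2(level + 1), the *Plxnc1* difference came to 1.33-fold, with 1 of 5 plates in the opposite direction. Within lumbosacral neurons, none of the 48 neurons with *Ntm*, which encodes the adhesion protein neurotrimin, had *Nrp1* at 10 or more.

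Secreted class 3 semaphorins are bound by a neuropilin, which has a short cytoplasmic tail and signals through a class A plexin held in the same complex. Plexins are the signalling subunits, with a GTPase-activating domain inside the cell, and they can also bind some semaphorins without a neuropilin. Neuropilins also bind members of the VEGF family, and both families are known for steering sensory axons as they grow and for their presence in blood vessels.

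Neurons came from C57BL/6J mice in which Fast Blue, a retrograde tracer, had been injected into the colon wall during abdominal surgery, so that every neuron in both groups came from an operated animal. Thoracolumbar (TL) ganglia of the T10 to L1 levels and lumbosacral (LS) ganglia of the L5 to S2 levels were dissociated into 2 separate cultures, and Fast Blue-positive cells were drawn up 1 by 1 with a pipette. The labels describe 203 TL and 196 LS neurons and 13 samples of bath solution. The table holds the 325 neurons that passed the authors' filter on quality, 167 TL and 158 LS, and the other 74 neurons and the bath samples were not analysed here. Age, sex and the animal or culture of a neuron are not given in the labels, so each segment counted as 1 sample. Segment therefore cannot be told apart from culture or animal, and no p-value was computed.

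Levels are given per length of gene. The deposited log2 value was taken off the log scale and rescaled so that the levels of each neuron summed to 1000000, which allows genes to be compared with each other. A neuron was taken to express a gene at a level of 10 or more. For the 8 genes other than *Plxna2* and *Plxnb1*, that level corresponded to a median of between 60 reads (*Nrp1*) and 195 reads (*Plxna4*). It corresponded to 270.5 reads for *Plxna2* and to 16 reads in the single *Plxnb1* neuron near that level. The interval beside a share is the exact 95% interval of Clopper and Pearson, which allows for counting error alone. For a share of 0 the limit given is 3 counts divided by the number of neurons, followed by the upper end of that interval. Library plates 2 to 6 each held TL and LS neurons, 21 to 38 of each, and served as strata, while plate 1 held 5 TL neurons and no LS neuron.

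Recovered reads ranged from 485751 to 10499482 per TL neuron and from 416007 to 12058968 per LS neuron. All 10 genes of a list of neuronal markers had a median above 0 in both segments. Markers of other cells were also present. The summed level of 10 satellite glia and Schwann cell markers had a median of 1997 in TL neurons and 143 in LS neurons. The summed level of 10 endothelial markers was lower, with medians of 65.8 and 50.7. Of these markers, *Tek* and *Egfl7* had a median above 0 in both segments, and *Esam* in TL neurons only. *Pecam1*, *Cdh5*, *Cldn5*, *Tie1*, *Emcn*, *Ly6c1* and *Erg* had a median of 0 in both segments. A single TL neuron stood apart with an endothelial sum of 25723. Macrophage and fibroblast sums had medians of 15.3 and 26.6 in TL neurons and of 42.1 and 29.0 in LS neurons. *C1qb* was the only macrophage marker with a median above 0 in either segment. Of the fibroblast and mural cell markers, only *Dcn* and *Col1a2* had a median above 0 in TL neurons, and only *Dcn* in LS neurons.

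In TL neurons the order of mean levels was *Nrp1*, *Nrp2*, *Plxnc1*, *Plxna4*, *Plxna2*, *Plxnd1*, *Plxna3*, *Plxnb2*, *Plxna1* and *Plxnb1*. The ranges of the plate means separated *Nrp1* from *Nrp2*, *Plxnb2* from *Plxna1*, and *Plxna1* from *Plxnb1*, whereas all other neighbours overlapped. In LS neurons *Plxna4* came first, followed by *Nrp1*, *Nrp2*, *Plxna2*, *Plxna3*, *Plxnb2*, *Plxnd1*, *Plxnc1*, *Plxna1* and *Plxnb1*. There the plate means separated *Plxna3* from *Plxnb2*, *Plxnc1* from *Plxna1*, and *Plxna1* from *Plxnb1*. Every one of the 10 genes was listed at 0 in some neurons of each segment.

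**Figure D1:**
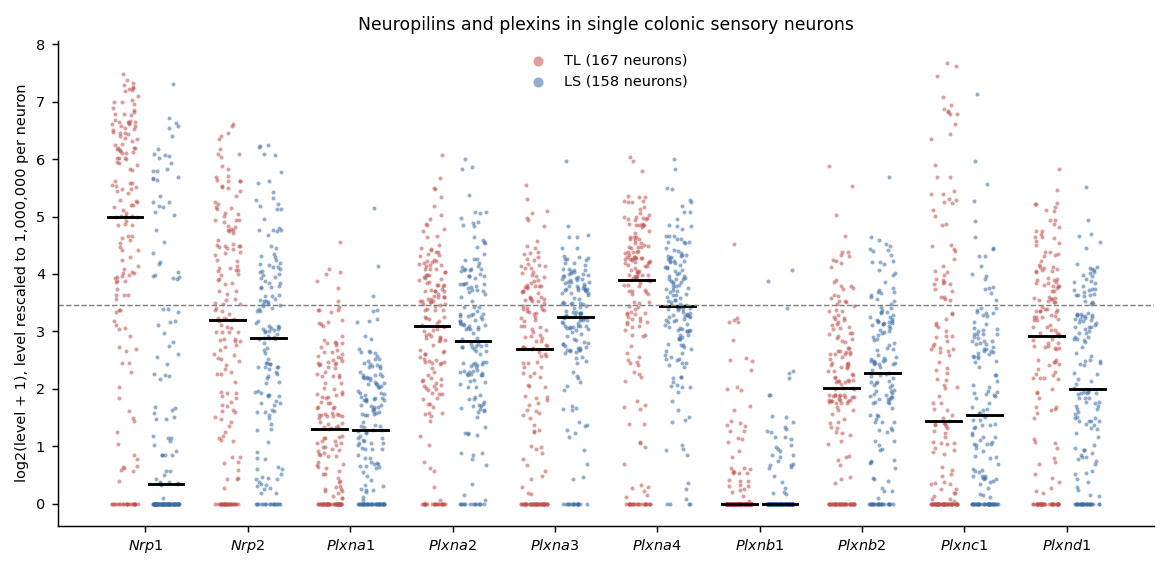
Level of each neuropilin and plexin gene in each of 167 TL and 158 LS neurons, on a log2(level + 1) axis, with a black bar at the median of each segment and a dashed line at a level of 10. The medians of *Nrp1* lie at 31.0 in TL and 0.26 in LS neurons, the widest gap of the 10 genes.

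*Nrp1* (ENSMUSG00000025810; chromosome 8, 128358604 to 128503363, plus strand) encodes neuropilin-1, a receptor for semaphorin 3A and VEGF-A. In TL neurons its level ran from 0 through a median of 31.0 to 178.1, and 22 neurons were at 0. In LS neurons it ran from 0 through a median of 0.26 to 157, and 77 neurons were at 0. The single neurons of the segments thus overlapped over nearly the whole range, while the bulk of the LS neurons lay close to 0. It was at 10 or more in 116 of 167 TL neurons (69.5%, interval 61.9 to 76.3%) and in 37 of 158 LS neurons (23.4%, interval 17.1 to 30.8%). The plate means were 47.2 ± 9.23 in TL (SD, n = 5 plates) and 13.0 ± 7.02 in LS (SD, n = 5 plates), and the lowest TL plate (37.9) lay above the highest LS plate (24.7).

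*Plxnc1* (ENSMUSG00000074785; chromosome 10, 94790866 to 94944835, minus strand) encodes plexin C1, the receptor for semaphorin 7A. Its level ran from 0 through a median of 1.69 to 204.1 in TL neurons, and from 0 through a median of 1.90 to 140.3 in LS neurons. The medians were thus close to each other, and the segments parted only in the upper range. It was at 10 or more in 48 TL neurons (28.7%, interval 22.0 to 36.2%) and in 19 LS neurons (12.03%, interval 7.40 to 18.1%). The plate means were 15.8 ± 8.59 in TL and 5.43 ± 1.22 in LS (SD, n = 5 plates each), and they overlapped, since TL plate 2 had a mean of 4.66.

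A gene was counted as different between 2 groups of neurons when it had a mean of at least 10 in 1 group, a 2-fold ratio of means and the same direction in each plate that held 3 or more neurons of both groups. Of the 7752 genes with that mean in TL or LS neurons, 4.72% met the rule. The neuropilins and plexins with that mean were *Nrp1*, *Nrp2*, *Plxna2*, *Plxna4* and *Plxnc1*, and 2 of these 5 met it. *Nrp1* differed by a log2 ratio of -1.87 (LS over TL), with values from -2.99 to -1.34 in the 5 plates. *Plxnc1* differed by -1.52, with values from -2.04 to -0.16. Because the LS mean of *Plxnc1* was 5.67, the gene entered the count only through its TL neurons. It could not have done so with a TL mean equal to that of LS neurons. On a mean of log2(level + 1), *Plxnc1* no longer met the rule, with a difference of -0.42 and 1 plate in the opposite direction.

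Values of other cell types were set beside both genes. Among TL neurons, the glial sum had a median of 2057 with *Nrp1* and 1762 without it, the endothelial sum a median of 68.8 with it and 28.2 without it, and the macrophage sum a median of 23.7 with it and 0.0968 without it. Of the 10 macrophage markers, only *C1qb* had a median above 0 with *Nrp1*, and none did without it. Of the 10 endothelial markers, *Tek*, *Egfl7* and *Esam* had a median above 0 with *Nrp1*, and only *Egfl7* without it. Among TL neurons with *Plxnc1* the glial sum had a median of 269, against 2263 without it. The TL neuron with the high endothelial sum had *Nrp1* at 109.7 and *Plxnc1* at 0. Without the tenth of neurons highest in endothelial markers, the ratio was 3.65-fold for *Nrp1* and 3.28-fold for *Plxnc1*. In neurons with a glial sum below 100 (41 TL and 74 LS), *Nrp1* had means of 52.0 and 14.4 and *Plxnc1* means of 23.5 and 4.75, with *Plxnc1* in the opposite direction in 1 of the 4 plates that could be compared.

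**Figure D2:**
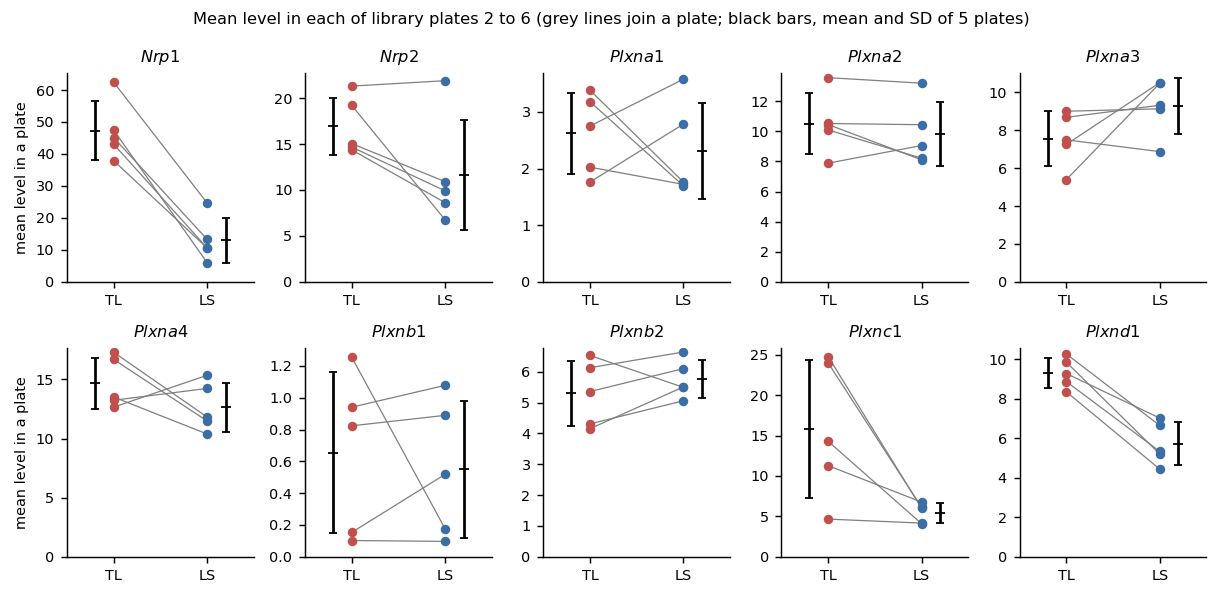
Mean level in each of library plates 2 to 6 for TL and LS neurons, with grey lines joining the segments of a plate and black bars giving the mean and SD of the 5 plates. *Nrp1* and *Plxnd1* are the genes whose TL and LS plate means do not overlap.

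The RefSeq promoters of *Nrp1*, *Nrp2* and *Plxnc1*, which differed in expression between groups, are shown side by side. That of *Plxna3*, which differed by *Gfra3* within TL neurons, is not shown. The letters are those before the RefSeq start on GRCm38.p6, 5′ to 3′ on the strand of the gene, and capitals mark GC boxes (GGGCGG or its reverse complement CCGCCC). The stretches are chr8:128358823-128359072 on the plus strand for *Nrp1*, chr1:62703067-62703284 on the plus strand for *Nrp2*, where the last 32 of 250 bases lay in an exon and are not shown, and chr10:94944846-94945095 on the minus strand for *Plxnc1*.
Nrp1: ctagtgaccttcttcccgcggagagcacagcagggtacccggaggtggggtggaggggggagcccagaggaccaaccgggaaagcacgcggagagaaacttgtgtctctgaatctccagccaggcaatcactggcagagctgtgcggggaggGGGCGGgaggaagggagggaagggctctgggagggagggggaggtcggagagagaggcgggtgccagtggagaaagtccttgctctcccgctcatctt
Nrp2: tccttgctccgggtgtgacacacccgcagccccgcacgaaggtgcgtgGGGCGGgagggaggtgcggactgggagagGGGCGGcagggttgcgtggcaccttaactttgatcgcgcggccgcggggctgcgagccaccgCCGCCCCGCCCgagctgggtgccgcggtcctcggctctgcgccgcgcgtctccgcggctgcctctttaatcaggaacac
Plxnc1: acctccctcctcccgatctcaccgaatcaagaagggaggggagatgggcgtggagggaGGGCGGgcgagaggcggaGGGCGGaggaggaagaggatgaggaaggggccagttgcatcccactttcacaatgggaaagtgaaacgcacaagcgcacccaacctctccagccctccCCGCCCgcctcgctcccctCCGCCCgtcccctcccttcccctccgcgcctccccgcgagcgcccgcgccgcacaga
Over 250 bases before the start, *Nrp1* held 1 GC box, 98 bases before the start, *Nrp2* held 5, of which 1 pair shared a base, and *Plxnc1* held 4. A GC box was present in 32.7% of 32851 RefSeq promoters of the same length. Entries were found for 8 of the 10 genes, all of which held a GC box, and their GC content was 62.8 to 75.2%, against a median of 52.4% for all promoters. A CCAAT box (CCAAT, in 33.8% of promoters), a TATA box (TATAAA, 12.4%), a homeodomain core (TAATTA, 4.84%) and an E box (CAGATG, 14.4%), each searched on both strands, were in none of the 8. By the GENCODE coordinates, the stretches of *Nrp1* and *Plxna2* and entry 2 of *Plxnb2* lie wholly inside the gene, not before it. These matches describe letters only.

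*Nrp2* (ENSMUSG00000025969; chromosome 1, 62703285 to 62818695, plus strand) encodes neuropilin-2, the partner of neuropilin-1 that prefers semaphorins 3B, 3C and 3F. In TL neurons it ran from 0 through a median of 8.16 to 97.1, and in LS neurons from 0 through a median of 6.40 to 74.9. The segments overlapped in single neurons and in plate means, which were 16.9 ± 3.15 in TL and 11.6 ± 5.96 in LS (SD, n = 5 plates). It was at 10 or more in 44.9% of TL (interval 37.2 to 52.8%) and 36.1% of LS neurons (interval 28.6 to 44.1%), and was higher in TL in 4 of 5 plates.

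The class A plexins are the signalling partners of the neuropilins. *Plxna4* (chromosome 6, 32144268 to 32588192, minus strand), a signalling partner for semaphorin 3A, was the most widely expressed of them, with a median of 13.8 and a highest value of 65.0 in TL and a median of 9.85 and a highest value of 63.2 in LS neurons. *Plxna2* (chromosome 1, 194618218 to 194816869, plus strand) had medians of 7.57 and 6.10, and reached 66.2 in TL and 63.4 in LS neurons. *Plxna3* (X chromosome, 74329066 to 74344689, plus strand), which pairs with neuropilin-2, had a median of 5.45 and a highest value of 46.1 in TL and a median of 8.46 and a highest value of 62.0 in LS neurons. *Plxna1* (chromosome 6, 89316314 to 89362620, minus strand) was low, with medians of 1.47 and 1.43, and was at 10 or more in 7 TL and 3 LS neurons. None of the 4 class A plexins had TL and LS plate means that stood apart. Their shares at 10 or more were 58.7% in TL and 48.1% in LS neurons for *Plxna4*, 42.5% and 31.6% for *Plxna2*, and 29.9% and 40.5% for *Plxna3*. At 10 on the scale of reads per 1000000, which is not divided by gene length, the shares were 80.2% in TL and 91.8% in LS for *Plxna4*, the opposite order, and 83.2% and 83.5% for *Plxna2*.

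*Plxnd1* (chromosome 6, 115954811 to 115995005, minus strand) encodes plexin D1, which binds semaphorin 3E directly. Its level ran from 0 through a median of 6.60 to 55.7 in TL neurons and from 0 through a median of 2.99 to 44.9 in LS neurons. It was at 10 or more in 59 TL neurons (35.3%, interval 28.1 to 43.1%) and in 34 LS neurons (21.5%, interval 15.4 to 28.8%). The single neurons overlapped, but the plate means did not, being 9.33 ± 0.761 in TL and 5.73 ± 1.07 in LS (SD, n = 5 plates). The ratio was 1.59-fold in favour of TL in 5 of 5 plates, so the gene reached neither the mean of 10 nor the 2-fold ratio.

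The class B plexins are receptors for class 4 semaphorins. *Plxnb2* (chromosome 15, 89155549 to 89180788, minus strand) had medians of 3.05 in TL and 3.81 in LS neurons, with highest values of 57.9 and 50.7. *Plxnb1* (chromosome 9, 109095389 to 109119917, plus strand) was the lowest of the 10 genes, at 0 in 122 TL and 121 LS neurons and at 10 or more in 1 TL and 2 LS neurons. For neither did the plate means of the segments stand apart.

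Neurons were next grouped by *Gfra3*, the artemin receptor of peptidergic neurons, and by *Piezo2*, a mechanically gated channel, each at 10 or more. Among TL neurons 82 had *Gfra3* only, 55 *Piezo2* only, 18 both and 12 neither. Among LS neurons the numbers were 76, 65, 7 and 10. As with *Plxnc1* above, a gene below a mean of 10 in 1 of 2 groups enters a count only through the other group.

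Among TL neurons, both neuropilins and *Plxnc1* were higher in those with *Piezo2*. Of the 7777 genes compared between the 73 TL neurons with *Piezo2* and the 94 without it, 9.44% met the rule, and 3 of the 5 neuropilin and plexin genes compared did. *Nrp1* had means of 70.6 and 25.7, a 2.75-fold ratio. *Nrp2* had means of 28.0 and 7.48, a 3.74-fold ratio. *Plxnc1* had means of 31.3 and 4.66, a 6.72-fold ratio, and the direction of all 3 was the same in 5 of 5 plates. *Plxnc1* came to 11.4-fold without plate 4. It did not meet the rule without rescaling, where 1 of 5 plates had the opposite direction. *Nrp2* did not meet it below a glial sum of 100, where it was 1.80-fold higher and in 2 of 3 plates. *Plxna2*, at 13.4 and 7.44, was 1.80-fold higher with *Piezo2*, also in 5 of 5 plates. In LS neurons the same grouping, 72 with *Piezo2* and 86 without, separated none of the 4 genes compared, against 7.16% of 7833 genes. The LS means of *Nrp1* were 13.5 and 11.4, and those of *Nrp2* 11.9 and 10.8. Whether the effect of the grouping differed between segments was not tested.

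Among TL neurons, *Nrp2* was lower and *Plxna3* higher in those with *Gfra3*. Among 7790 genes compared between 100 TL neurons with *Gfra3* and 67 without it, 8.16% met the rule, and 2 of 7 neuropilin and plexin genes did. The means of *Nrp2* were 10.99 with *Gfra3* and 24.6 without it, a 2.24-fold ratio, and those of *Plxna3* were 10.3 and 2.93, a 3.50-fold ratio, in 5 of 5 plates for both. Neither gene met the rule once plate 6 was left out, when *Nrp2* came to 1.87-fold and the *Plxna3* mean to 9.87. *Plxnc1*, at 6.46 and 31.0, was lower with *Gfra3* in 4 of 5 plates, and it met the rule without plate 4. In LS neurons, 83 with *Gfra3* and 75 without, 8.22% of 7858 genes met the rule but none of the 4 neuropilin and plexin genes compared. There *Plxna4* had means of 15.0 and 9.83 and *Plxnd1* means of 7.89 and 3.41, both higher with *Gfra3* in 5 of 5 plates.

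The 18 TL neurons with both genes had the highest *Nrp1* mean of any class, 74.7, and 17 of them were at 10 or more. Those with *Piezo2* only followed at 69.3, those with *Gfra3* only at 27.6 and those with neither at 12.6. The same order held for *Nrp2*, except that those with neither (14.9) lay above those with *Gfra3* only (6.39). The 7 LS neurons with both also had the highest means of their segment, 26.0 for *Nrp1* and 26.7 for *Nrp2*, but rest on few neurons.

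**Figure D3:**
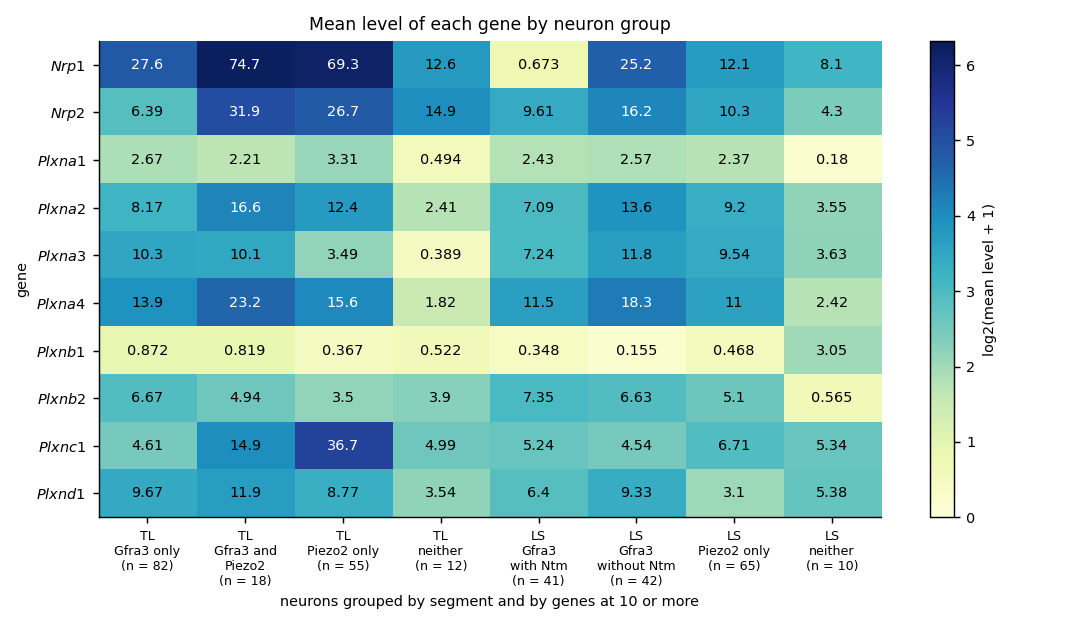
Mean level of each gene in TL and LS neurons grouped by *Gfra3*, *Piezo2* and, for LS neurons with *Gfra3*, *Ntm* at 10 or more, with colour giving log2(mean level + 1) and the number of neurons under each column. *Nrp1* reaches 74.7 and 69.3 in the TL groups with *Piezo2* and is at 0.673 in the LS *Gfra3* neurons with *Ntm*.

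Segments were then compared within each class. Among neurons with *Gfra3*, 3.22% of 7700 genes met the rule, and of 6 neuropilin and plexin genes only *Nrp1* did, at 36.1 in TL and 13.1 in LS neurons (2.76-fold, 5 of 5 plates). Without the tenth of neurons highest in fibroblast markers that ratio was 2.06-fold. The segments were not matched for *Ntm*, which was at 10 or more in 41 of the 83 LS *Gfra3* neurons and in 0 TL neurons. *Nrp1* was at 10 or more in 0 of these 41 and in 23 of the other 42, and their means are given below. Over all neurons, that step kept 165 of the 167 TL but 127 of the 158 LS neurons. Among neurons with *Piezo2*, 7.29% of 7875 genes met the rule, and of 5 neuropilin and plexin genes *Nrp1* and *Plxnc1* did. *Nrp1* was at 70.6 in TL and 13.5 in LS (5.24-fold), and *Plxnc1* at 31.3 and 6.88 (4.55-fold). *Nrp2*, at 28.0 and 11.9, was 2.35-fold higher in TL but in 4 of 5 plates, and it met the rule without plate 3. *Plxnd1* was also higher in TL *Piezo2* neurons, at 9.54 against 3.45, and *Plxna3* was lower, at 5.12 against 9.38, each in 5 of 5 plates and with means below 10. *Plxnd1* met the rule in reads per 1000000, without neurons with few genes and without the rRNA gene. *Plxna2*, at 13.4 in TL and 10.8 in LS, turned direction below a glial sum of 100 and then met the rule, at 6.78 in TL and 14.4 in LS (3 of 3 plates).

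*Ntm* was at 10 or more in 48 LS neurons and in 0 of 167 TL neurons, which allows a share of up to 1.80% (exact upper limit 2.18%), with a highest TL level of 7.61. Between LS neurons with and without *Ntm*, 4.9% of 7852 genes met the rule, and of 4 neuropilin and plexin genes only *Nrp1* did. In the 48 neurons with *Ntm*, *Nrp1* ran from 0 through a median of 0 to 9.43. In the 110 without it, *Nrp1* ran from 0 through a median of 1.19 to 157. The means were 0.772 and 17.4, a 22.6-fold ratio in 5 of 5 plates. The size of this ratio was unstable: it was 35.2-fold without plate 4, and over all alternatives it lay between 3.62-fold, on the mean of log2(level + 1), and 41.4-fold, below a glial sum of 100. The rule was met in each of them. The fibroblast sum had a median of 4.39 in LS neurons with *Nrp1* and 90.1 in those without it. Of its 10 markers, only *Dcn* had a median above 0 in the neurons without *Nrp1*, and none did in those with it. Without the tenth of neurons highest in this sum, the ratio between the *Ntm* groups was 12.5-fold. That step kept 127 of the 158 LS neurons. No *Ntm* neuron had *Nrp1* at 10 or more, and 0 of 48 allows a share of up to 6.25% (exact upper limit 7.40%), while 37 of the 110 others had it. The *Ntm* level of those 37 neurons did not exceed 8.62 and was 0 in 22 of them.

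The same held within LS *Gfra3* neurons, where *Nrp1* was at 10 or more in 0 of 41 with *Ntm* and in 23 of 42 without it (54.8%, interval 38.7 to 70.2%). Their *Nrp1* means were 0.673 and 25.2. The other receptors were present on both sides, with means of 9.61 and 16.2 for *Nrp2*, 7.09 and 13.6 for *Plxna2*, and 11.5 and 18.3 for *Plxna4*. The absence of neurons with both depended on the threshold: at a level of 5, 5 LS neurons had both, at a level of 20 there were none, and at 10 reads per 1000000 there were 12.

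**Figure D4:**
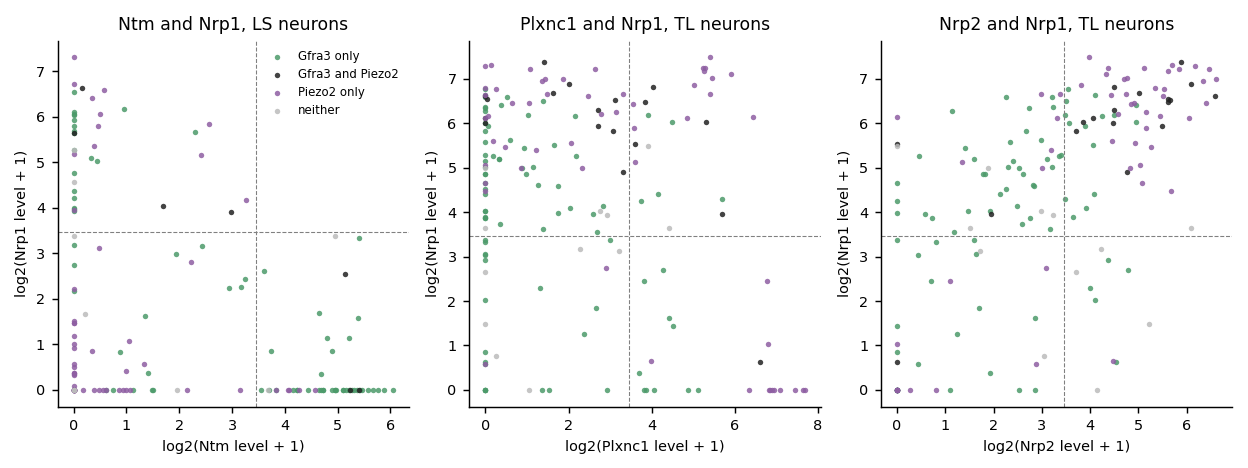
*Nrp1* against *Ntm* in LS neurons, against *Plxnc1* in TL neurons and against *Nrp2* in TL neurons, each point a neuron on log2(level + 1) axes, coloured by *Gfra3* and *Piezo2* at 10 or more, with dashed lines at a level of 10. The upper right field is empty for *Ntm*, and holds 25 of 167 neurons for *Plxnc1* and 65 of 167 for *Nrp2*.

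A neuropilin was at 10 or more in 196 of 325 neurons. Both neuropilins were found together in 65 TL neurons (38.9%) and 24 LS neurons (15.2%), and neither in 41 TL and 88 LS neurons. A class A plexin was present in 114 TL neurons (68.3%) and 113 LS neurons (71.5%). Among the 153 neurons with *Nrp1*, 132 also had a class A plexin (86.3%, interval 79.8 to 91.3%), against 95 of the 172 without *Nrp1* (55.2%, interval 47.5 to 62.8%). The contrast was 98 of 116 against 16 of 51 in TL neurons, and 34 of 37 against 79 of 121 in LS neurons. *Plxna4* was the class A plexin most often found with *Nrp1*, in 115 of the 153 neurons. The median neuron had 4 of the 10 genes at 10 or more in TL and 2 in LS, and 6 TL and 29 LS neurons had none.

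Across the 325 neurons, the 45 pairs of genes had a median Spearman's rho of 0.10, from -0.12 to 0.55, and 8 pairs were at 0.4 or more. These are descriptions: each neuron is 1 library, the neurons share cultures and plates, and rho of the 10 genes with recovered reads was between 0.01 and 0.20. The highest value was that of *Nrp1* with *Nrp2*, 0.55 over all neurons, 0.68 in TL and 0.41 in LS. *Plxna2* with *Plxna4* followed at 0.54, and *Nrp2* with *Plxna4* at 0.50. The 8 pairs were all among the neuropilins and *Plxna2*, *Plxna3* and *Plxna4*. *Nrp2* and *Plxnd1* had a rho of -0.30 in TL and 0.37 in LS neurons. In the 115 neurons with a glial sum below 100, 3 pairs reached 0.4, of which *Nrp1* with *Nrp2* and *Nrp2* with *Plxna4* were among the 8.

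**Figure D5:**
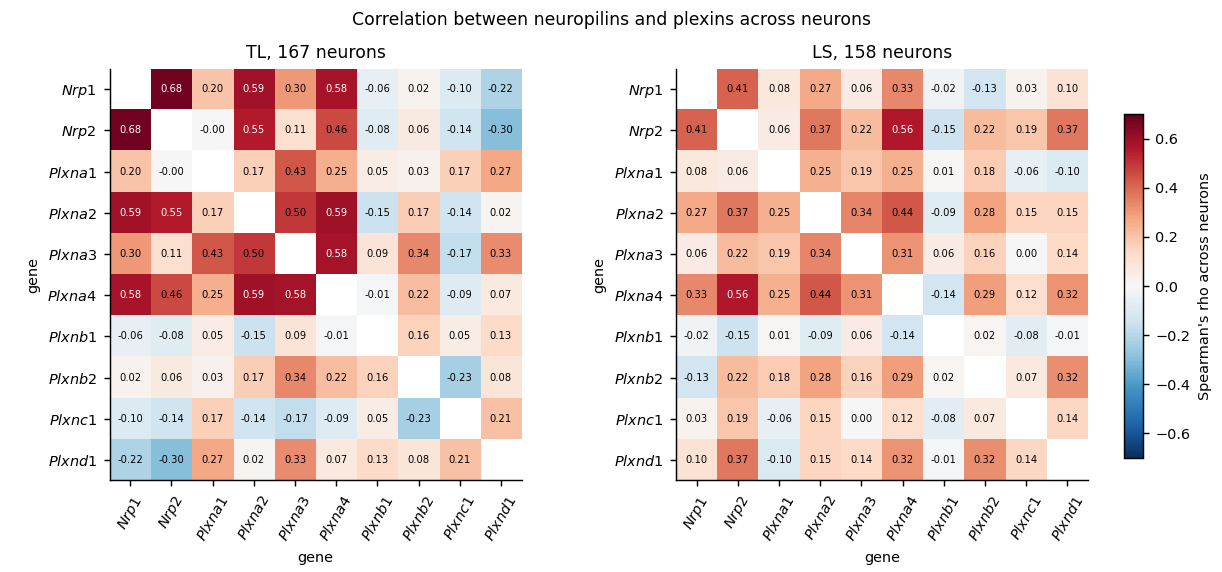
Spearman's rho between each pair of the 10 genes across 167 TL neurons (left) and 158 LS neurons (right), from blue (negative) to red (positive). *Nrp1* with *Nrp2* reaches 0.68 in TL and 0.41 in LS neurons, and *Nrp2* with *Plxnd1* is at -0.30 and 0.37.

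The *Plxnc1* values of TL neurons with *Piezo2* only differed between plates, with plate means from 5.36 to 57.8 that were highest in plates 5 and 6. In these 55 neurons *Nrp1* and *Plxnc1* were found together in 13, *Nrp1* alone in 28, *Plxnc1* alone in 12 and neither in 2 (rho -0.33). *Plxnc1* and *Plxnd1* had a rho of 0.46 in the same neurons, and *Nrp1* and *Nrp2* of 0.64, with both at 10 or more in 34.

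For each gene the 3 genes with the most similar profile were found by Pearson's r of log2(level + 1) over 325 neurons, after the mean of each plate and segment had been removed, among 11450 genes. *Nrp1* was most like *Nrp2* (0.57), the phosphodiesterase *Pde1c* (0.54) and *Spock1* (0.54). *Nrp2* was most like the muscarinic receptor *Chrm2* (0.61), *Nrp1* and the prokineticin receptor *Prokr2* (0.54). *Plxnc1* was most like *Moxd1* (0.64), *Cyp4f39* (0.57) and *Cdk15* (0.57), and *Plxnd1* like the sodium pump subunit *Atp1b3* (0.63), *Mal2* and *Rasgrp1*. Higher values were found for the class A plexins, with *Plxna4* most like the latrophilin *Adgrl1* (0.74), *Ptprn* and *Rtn1*, *Plxna3* like the synaptic vesicle protein gene *Sv2a* (0.72), *Atp2b4* and *Cacna1e*, and *Plxna2* like the microtubule protein gene *Map1b* (0.64), *Smpd3* and *Rtn1*. *Plxna1* was most like *Robo2* (0.43), *Plxnb2* like *Zbtb20* (0.52), *Ep400* and *Dag1*, and *Plxnb1* like *Alpl* (0.45), *C4b* and *Col28a1*.

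Of the other pathway genes that reached a mean of 10, most did not differ between segments by the same rule. Of all 7752 genes compared, 4.72% met it, with a median log2 ratio (LS over TL) of 0.04. Of 7 class 3 semaphorins, the secreted ligands of the neuropilins, only *Sema3b* reached a mean of 10, with 21.1 in TL and 8.27 in LS neurons, and it did not meet the rule because 1 plate had the opposite direction. Over all neurons *Sema3c* came next in level, at 5.25 and 3.66. Among those below a mean of 10, *Sema3d* was at 0.484 in TL and 4.73 in LS, and *Sema3f* at 2.90 and 0.822. *Sema3d* was at 10 or more in 18.4% of LS and 0% of TL neurons, and *Sema3f* in 10.8% of TL and 0% of LS neurons. Of 13 class 4 to 7 semaphorins, which are anchored in the membrane, 5 were compared and 1 was lower in LS neurons, *Sema5a*, at 15.4 in TL and 6.98 in LS neurons. The highest of them were *Sema4f* (49.9 and 58.8) and *Sema4d* (40.7 and 45.2). Of 5 VEGF ligands 2 were compared and none met the rule, *Vegfb* having means of 42.3 and 53.0 and *Pgf* of 11.7 and 8.89.

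Of 12 co-receptors and partners, 5 were compared and 1 was higher in LS neurons. This was *Nrcam*, an adhesion molecule of the L1 family that binds neuropilin-2, at 25.2 in TL and 58.7 in LS, a 2.33-fold ratio in 5 of 5 plates. The highest of this list were the integrin *Itgb1* (135 and 121) and *L1cam* (115 and 136). Of 21 cytoplasmic effectors of plexin signalling 13 were compared and none met the rule. The collapsin response mediators *Dpysl2* (709 and 691) and *Dpysl3* (203 and 197) were the highest of these. Of 10 netrin and Slit receptors only *Robo2* was compared, at 10.9 and 14.6, and it did not meet the rule, with *Neo1* next in level at 5.32 and 5.59.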

How the data were processed

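Single neurons were sequenced by a Smart-seq2 protocol with Nextera XT libraries (unstranded, without molecular identifiers) and 75 bp paired-end reads. Submitters' processing notes name bcl2fastq 2.15.0.4, STAR 2.4.1, featureCounts 1.4.4 and GRCm38.p3. The authors deposited log2(x + 1) values normalised for gene length and neuron. No doublet caller was run, since cells were picked singly.

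Values were rescaled to 1000000 per neuron. Whole reads were recovered from the values within a relative tolerance of 1e-06 and gave depth, from 416007 to 12058968 reads per neuron, and reads per 1000000 (CPM). Symbols and coordinates came from GENCODE M21, a later annotation than that used by the authors. Groups followed the labels, and TL and LS were compared by ratios of means with plates as strata and no test. Groups within a segment were set by *Gfra3*, *Piezo2* and *Ntm* at 10 or more. Named were the 10 genes, these 3, for each of the 10 genes the 3 most similar genes, and of each pathway list the genes that met the rule and the 2 highest, and some of these are not reported here. The members and lists were chosen with earlier results of these data known. Python 3.11.15, numpy 2.4.6, pandas 2.3.3 and scipy 1.17.1 were used, and scripts were tested on simulated data. Alternatives changed the scale, threshold, fold, filters and neurons used.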

Additional observations from a re-analysis of the deposited data

How the results depend on the processing

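The count of neuropilin and plexin genes meeting the rule between LS and TL neurons was 2. It was 1, without *Plxnc1*, on the mean of log2(level + 1), at 3-fold and in neurons with a glial sum below 100. The share of all genes in these settings was 5.34%, 2.154% and 4.55%, against 4.72%. Among *Gfra3* neurons the count of 1 became 0 at 3-fold, and 2 without the filter on low values, which added *Plxnb1*. There the share of all genes was 1.52% and 4.82%, against 3.22%. The TL grouping by *Gfra3*, with a count of 2, was the least stable. It gave 4 on the mean of log2, 1 without rescaling, at 3-fold, without neurons with few genes, without the tenth highest in endothelial or in glial markers and below a glial sum of 100, where the 1 was *Plxnc1*, with *Nrp2* at 1.29-fold and the *Plxna3* mean below 10, and 0 without the tenth highest in macrophage markers. Leaving out 1 plate gave 0 to 3. Against 8.16%, the share of all genes was 9.99% on the mean of log2, 6.998% without rescaling and 4.58% at 3-fold. It was 8.65% without neurons with few genes and 13.96% below a glial sum of 100. Without the tenth highest in endothelial, glial or macrophage markers it was 8.16%, 8.82% and 7.695%. With 1 plate left out it ran from 7.91% to 10.1%. In LS neurons the grouping by *Gfra3* went from 0 to 1 without rescaling, in CPM and at 1.5-fold, and to 2 without the filter on low values. The share of all genes was 9.66%, 8.33%, 15.0% and 7.03% in these settings, against 8.22%. The 8 pairs at a rho of 0.4 became 3 below a glial sum of 100. The cause was not tested in any of these cases.

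The log2 ratio (LS over TL) ranged over the 17 alternatives from -2.57 to -1.64 for *Nrp1* and from -2.31 to -0.42 for *Plxnc1*. *Plxnc1* differed more than *Nrp1* without plate 4 (-1.73 and -1.64) and below a glial sum of 100 (-2.31 and -1.85). Of 217 alternative counts, 198 stayed within 1.5 times, 13 were lower and 6 higher, and of 170 ratios 161 moved by less than the spread between plates. Shares were less stable, and 71 of 380 left the exact interval of the reported share. *Plxna2*, *Plxna4*, *Plxnb1* and *Plxnb2*, none of which met the rule between segments, changed sign under at least 1 alternative. The limit on glial markers and the omission of the rRNA gene were chosen after seeing the data. No paired analysis was possible because each segment is 1 sample and no result comes from a test. The plates that TL and LS neurons share were used as strata.

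Each segment is 1 sample of unknown numbers of animals, and reads without molecular identifiers are not independent molecules, so the intervals cover counting error only. In the median neuron 1 read was worth a level of 0.136 for *Nrp1* and 0.0468 for *Plxna2*.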

Other observations

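The 15 neurons highest in *Plxnc1*, chosen after their values were seen, had levels from 61.4 to 204.1. Of these, 13 were TL neurons, 14 had *Piezo2* without *Gfra3*, and 11 came from plates 5 and 6. *Nrp1* was below 10 in 13 of them and at 0 in 10, and *Nrp2* was below 10 in 14. *Plxnd1* was at 10 or more in 14 of them, against 35.3% of all TL and 21.5% of all LS neurons. Their glial sums ran from 0 to 6212, and the part of plate in this pattern was not tested.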
